A study of Homo sapiens with 12 samples.

Results

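The genes described here are ITGB1, which encodes the integrin beta 1 chain, and 9 of the alpha chains that pair with it: ITGA1, ITGA3, ITGA4, ITGA5, ITGA6, ITGA7, ITGA10, ITGA11 and ITGAV. They were taken by symbol, matched to Ensembl identifiers, and make up 10 of the 61552 genes listed in each file. RNA came from RD cells, an established human embryonal rhabdomyosarcoma line labelled fusion-negative (FN-RMS). One group of 3 libraries had received siRNA against EHMT1, also called GLP, a histone H3 lysine 9 methyltransferase, and the other group of 3 had received scrambled siRNA. The series concerns motility of these cells. Both groups were transfected with Lipofectamine RNAiMAX and collected after 48 h. The series also holds 6 libraries of a SOX8 siRNA experiment, which were not analysed here. The genes were selected on their read counts in the 3 EHMT1 siRNA and 3 scrambled siRNA libraries described first, with the comparison of these groups already known. Their changes are therefore a description and carry no p-value.

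Integrins are membrane receptors made of 1 alpha and 1 beta chain that tie the extracellular matrix to the actin cytoskeleton. The alpha chain largely sets the ligand: ITGA1, ITGA10 and ITGA11 form collagen receptors, ITGA3, ITGA6 and ITGA7 form laminin receptors, ITGA5 and ITGAV form receptors for the Arg-Gly-Asp motif of fibronectin and related proteins, and ITGA4 binds fibronectin and VCAM1. In skeletal muscle ITGA7 with ITGB1 is the main laminin receptor of mature fibres, and ITGA5 and ITGA6 with ITGB1 mark myoblasts. An alpha chain reaches the cell surface only with a beta chain, so transcript levels are not surface levels.

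ITGB1 was lower and most alpha chains were higher after EHMT1 siRNA. In a fit across all 18646 genes tested (edgeR, adjusted p under 0.05), 5 of the 10 integrin genes passed the threshold as higher (ITGA1, ITGA3, ITGA6, ITGA10 and ITGA11), 1 as lower (ITGB1), and 4 did not pass (ITGA4, ITGA5, ITGA7 and ITGAV). Over all genes tested 12.4% passed, 5.81% as higher and 6.54% as lower; since this comparison was known when the genes were chosen, nothing is read from the members' count against it. The largest change was that of ITGA11, at 2.08-fold, and that of ITGB1 was 0.828-fold. Fitted log2 fold changes of the 10 genes had a median of 0.21, against 0.00 over all genes tested. Without scrambled replicate 2, which stood apart from the other libraries, 7 integrin genes passed as higher and 1 as lower. Calls over all genes also rose in that fit, from 1084 to 1625 higher and from 1220 to 1923 lower. Counting reads of the second strand alone gave 6 integrin genes higher and 1 lower, beside 1152 higher and 1239 lower over all genes.

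**Figure D1:**
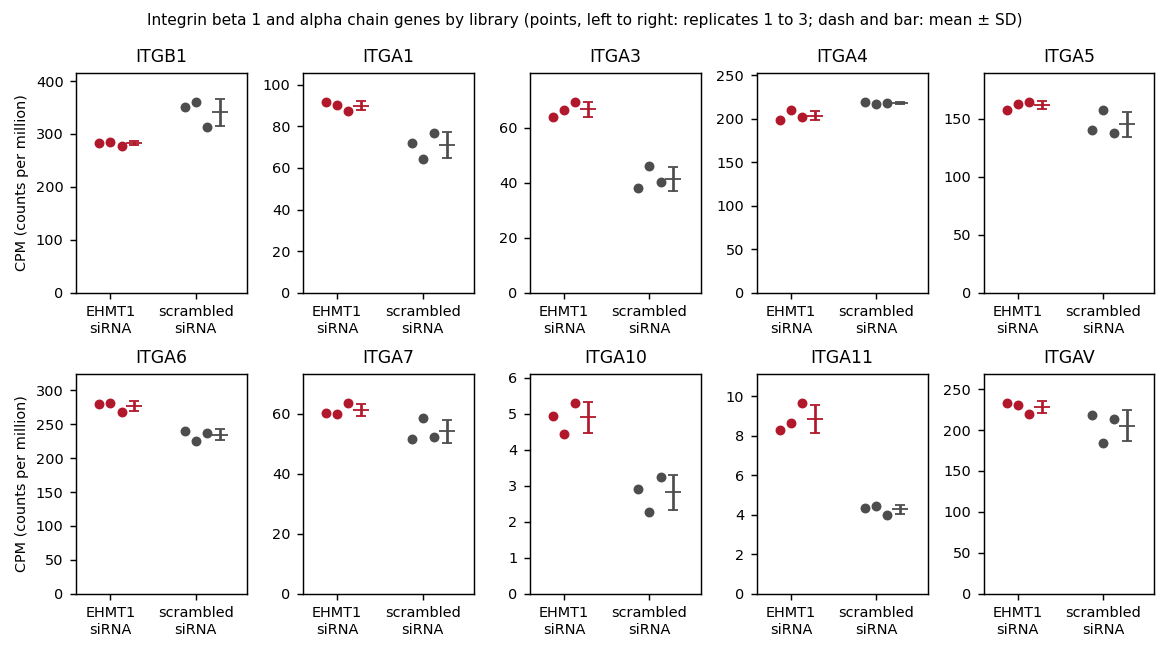
Counts scaled to library size (CPM, y axes from 0) of the 10 integrin genes in each library, EHMT1 siRNA left and scrambled siRNA right, with points for replicates 1 to 3 and a dash and bar for mean ± SD (n = 3). ITGB1 and ITGA4 lie lower and the other 8 genes higher in all 3 EHMT1 siRNA libraries than in any scrambled library.

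The 250 bases upstream of the annotated start are shown for ITGB1, the gene that was lower, and for ITGA10 and ITGA11, the 2 genes with the largest rises, to let their base content be compared. They come from RefSeq on GRCh38.p14: chr10:32958231-32958480 on the minus strand for ITGB1, chr1:145910051-145910300 on the minus strand for ITGA10 and chr15:68432164-68432413 on the minus strand for ITGA11. Each is written 5′ to 3′ on the gene's strand, and capitals mark matches to the GC box letters GGGCGG on either strand, which 42.6% of 35116 promoter windows of that length hold.
ITGB1: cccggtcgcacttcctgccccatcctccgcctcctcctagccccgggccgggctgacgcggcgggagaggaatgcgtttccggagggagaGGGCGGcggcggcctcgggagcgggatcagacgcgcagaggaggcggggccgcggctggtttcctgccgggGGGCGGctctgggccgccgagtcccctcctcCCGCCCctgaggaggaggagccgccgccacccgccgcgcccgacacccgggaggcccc
ITGA10: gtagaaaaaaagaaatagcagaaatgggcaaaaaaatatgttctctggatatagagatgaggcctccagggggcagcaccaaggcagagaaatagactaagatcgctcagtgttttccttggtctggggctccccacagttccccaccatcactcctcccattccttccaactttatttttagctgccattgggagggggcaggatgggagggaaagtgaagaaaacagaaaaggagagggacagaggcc
ITGA11: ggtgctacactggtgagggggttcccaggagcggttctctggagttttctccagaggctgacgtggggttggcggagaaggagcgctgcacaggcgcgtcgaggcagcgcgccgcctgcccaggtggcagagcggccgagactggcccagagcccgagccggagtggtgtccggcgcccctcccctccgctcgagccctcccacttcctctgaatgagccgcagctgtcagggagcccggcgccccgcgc
The ITGB1 window held 32 CG dinucleotides, 78.4% G and C, and 3 GC box matches. The ITGA10 window held 1 CG and 48.4% G and C, and the ITGA11 window 23 CG and 71.2% G and C, neither with a GC box match. Over all windows the median was 11 CG and 58% G and C, so the 2 rising genes lay on either side of it. Windows were found for 8 of the 10 genes, all but ITGA3 and ITGA7. None of the 8 held the letters AACAAT, a core of SOX binding sites, on either strand, which 8.98% of all windows hold. The RefSeq entries also hold the 50 bases after the start, which are not printed; as an unbroken run these were found in a GENCODE 29 transcript of the gene for ITGB1 and ITGA10 and in none for ITGA11.

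The libraries held 40639655 to 42098426 gene counts with EHMT1 siRNA and 41095515 to 47258481 with scrambled siRNA. Levels are given as counts scaled to library size (CPM), which compare a gene between libraries but not genes with each other. EHMT1 itself, the gene targeted, had 53.2, 54.4 and 57.6 CPM after its own siRNA, against 130.9, 155.9 and 130.1 CPM with scrambled siRNA, so that 39.6% of the scrambled mean remained (log2 fold change -1.34, SE 0.072, edgeR adjusted p = 9.13e-09). By exact permutation of the 6 libraries, two-sided, p was 0.1, which is the smallest value this design can reach. Of 8 muscle lineage markers 7 passed the filter on low counts, MYOD1 and DES among them, and MYF5 had 0 counts in all libraries. Their summed level was 1420 to 1495 CPM with EHMT1 siRNA and 1245 to 1429 CPM with scrambled siRNA. Epithelial, blood and endothelial markers, 4 genes each, summed to 0.413 to 0.443, 0.974 to 1.19 and 0.437 to 0.855 CPM with EHMT1 siRNA, and to 0.169 to 0.487, 0.571 to 0.979 and 0.286 to 0.657 CPM with scrambled siRNA. KRT14 had 0 counts in every library. PAX7 was the muscle marker that passed, as higher (0.28, edgeR adjusted p = 0.0058). In a principal component analysis EHMT1 siRNA libraries scored 19.6 to 21.6 on the leading axis (35.8% of variance), scrambled replicates 1 and 3 scored -16.0 and -9.16, and scrambled replicate 2 stood apart at -36.4. For each of the 10 integrin genes it was the lowest (5 genes) or the highest (5 genes) of its group. How often this held over all genes tested was not counted, so nothing particular to the integrin genes is read from it. In bulk RNA fewer cells that express a gene and less RNA per cell cannot be told apart.

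ITGB1, the shared beta chain, was the highest of the 10 genes in every library when counts were set against gene length. It had 283, 286 and 278 CPM in EHMT1 siRNA replicates 1, 2 and 3, against 350.2, 361 and 312 CPM in scrambled replicates 1, 2 and 3. All 3 EHMT1 siRNA libraries lay below the lowest scrambled library, and they were closer together, with a coefficient of variation of 1.33% against 7.48% with scrambled siRNA. The EHMT1 siRNA libraries were the less variable group, by coefficient of variation, for 8 of the 10 integrin genes and for 72.9% of all genes tested. The fitted log2 fold change was -0.27 (SE 0.061). It ran from -0.34 to -0.24 with 1 library left out, and ITGB1 no longer passed the threshold without EHMT1 siRNA replicate 3 (-0.26).

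All 3 collagen receptor chains among the 10 genes rose. ITGA2, a collagen receptor chain outside the 10 genes, did not pass (log2 fold change 0.57, edgeR adjusted p = 0.093). ITGA11, the alpha chain of a fibrillar collagen receptor of mesenchymal cells, had 8.28, 8.63 and 9.67 CPM with EHMT1 siRNA, against 4.36, 4.46 and 3.98 CPM with scrambled siRNA. Each EHMT1 siRNA library was well above each scrambled one, with a log2 fold change of 1.05 (SE 0.112). ITGA10, a chain best known from cartilage, had 4.94, 4.44 and 5.30 CPM with EHMT1 siRNA, against 2.91, 2.28 and 3.25 CPM with scrambled siRNA, a log2 fold change of 0.80 (SE 0.15). These were the lowest of the 10 genes: ITGA10 rested on 184 to 217 counts per EHMT1 siRNA library and 91 to 138 per scrambled library, and ITGA11 on 350 to 396 per EHMT1 siRNA library and 169 to 204 per scrambled library. ITGA1, which binds basement membrane collagen, had 91.7, 90.4 and 87.5 CPM with EHMT1 siRNA, against 71.9, 64.2 and 76.9 CPM with scrambled siRNA. Its log2 fold change was 0.34 (SE 0.066), and the groups did not overlap.

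Of the laminin receptor chains ITGA3 and ITGA6 rose and ITGA7 did not pass. ITGA3 had 64.0, 66.5 and 69.4 CPM with EHMT1 siRNA, against 37.9, 46.0 and 40.1 CPM with scrambled siRNA, a log2 fold change of 0.69 (SE 0.071). The lowest EHMT1 siRNA library was above the highest scrambled one by more than the spread within either group. ITGA6 was more abundant and moved less, at 279.8, 282 and 268 CPM with EHMT1 siRNA, against 240.4, 225 and 237 CPM with scrambled siRNA. Its log2 fold change of 0.24 (SE 0.055) no longer passed without EHMT1 siRNA replicate 1 (0.23) or 2 (0.22). ITGA7, the muscle laminin receptor chain, had 60.3, 60.0 and 63.6 CPM with EHMT1 siRNA, against 51.6, 58.6 and 52.2 CPM with scrambled siRNA. The groups did not overlap but came close at scrambled replicate 2, and the log2 fold change was 0.18 (SE 0.064). ITGA7 passed the threshold without scrambled replicate 2 (0.23) and in the second strand column (0.20).

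The chains that bind fibronectin and related ligands did not pass. ITGA5, the classical fibronectin receptor chain, had 157.9, 163.1 and 164.7 CPM with EHMT1 siRNA, against 140.3, 157.3 and 138.1 CPM with scrambled siRNA, a log2 fold change of 0.16 (SE 0.061). It passed without scrambled replicate 2 (0.21), the library nearest to the EHMT1 siRNA group. ITGAV, which also pairs with several other beta chains, had 233, 231 and 219 CPM with EHMT1 siRNA, against 218, 184 and 214 CPM with scrambled siRNA, a log2 fold change of 0.15 (SE 0.066). ITGA4 was the alpha chain with a negative value: 199, 209.8 and 202 CPM with EHMT1 siRNA, against 219, 217 and 218 CPM with scrambled siRNA, a log2 fold change of -0.10 (SE 0.054). In both genes the groups did not overlap, although neither passed. Counted over the 10 genes, 8 had no overlap and were higher and 2 had no overlap and were lower, where 30.9% of all genes tested had no overlap in either direction; again nothing is read from this share, since the comparison was known.

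**Figure D2:**
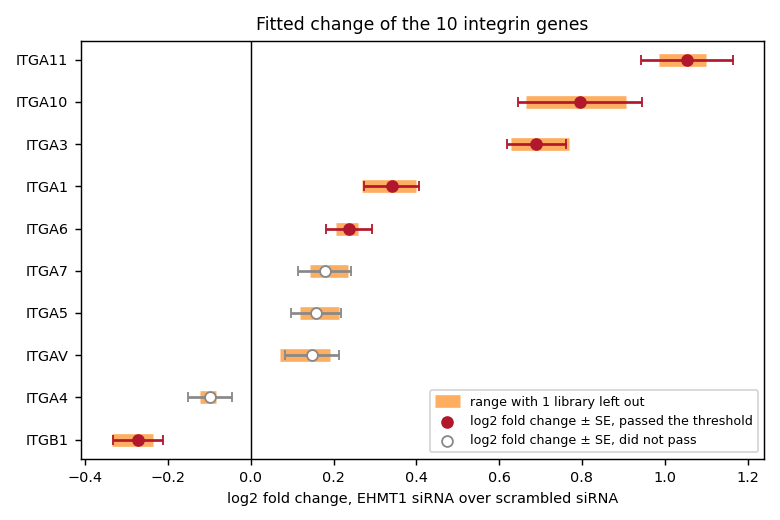
Fitted log2 fold change of EHMT1 siRNA over scrambled siRNA (x axis) with its SE for the 10 integrin genes; filled points passed the threshold of the fit over all genes, open points did not, and orange bars span the values with 1 library left out. ITGA11 lies at 1.05, ITGB1 at -0.27 and ITGA4 at -0.10.

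To compare genes with each other, counts were divided by the length of all annotated exons of GENCODE 29 and scaled to TPM, a length-corrected share of the library. On that scale ITGB1 stood at 179 ± 2.64 TPM with EHMT1 siRNA and 213 ± 10.5 TPM with scrambled siRNA (SD, n = 3 each). ITGA6 was next, at 161 ± 4.50 TPM with EHMT1 siRNA and 135 ± 9.09 TPM with scrambled siRNA (SD, n = 3 each). ITGAV and ITGA4 followed and changed places: 105.8 ± 3.45 and 98.2 ± 2.97 TPM with EHMT1 siRNA, against 94.2 ± 11.5 and 103.6 ± 4.05 TPM with scrambled siRNA (SD, n = 3 each). ITGA5 and ITGA7 came after them in every library. ITGA3 and ITGA1 lay close together with scrambled siRNA, at 15.8 ± 1.13 and 14.4 ± 1.79 TPM, and apart with EHMT1 siRNA, at 25.9 ± 1.06 and 18.4 ± 0.439 TPM (SD, n = 3 each). ITGA11 and ITGA10 were lowest, at 3.11 ± 0.254 and 2.95 ± 0.256 TPM with EHMT1 siRNA and 1.47 ± 0.0529 and 1.68 ± 0.350 TPM with scrambled siRNA (SD, n = 3 each), and did not differ beyond their spread in either group. The order depends on the length used: with the longest annotated transcript, ITGA4 exceeded ITGA6 with scrambled siRNA, at 28.9% against 23.1% of the summed alpha level. On that length ITGA4 also lay above ITGAV in both groups, so ITGAV and ITGA4 did not change places. Their longest transcripts have 7030 and 4189 bases, and all their exons 8211 and 7901.

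The summed level of the 9 alpha chains was 531, 542 and 528 TPM with EHMT1 siRNA, against 479, 444 and 485 TPM with scrambled siRNA. ITGB1 over this sum was 0.337, 0.335 and 0.334 with EHMT1 siRNA, against 0.461, 0.487 and 0.414 with scrambled siRNA, a ratio of the group means of 0.739. The 3 EHMT1 siRNA libraries were nearly identical and all below the scrambled ones. The sum leaves out the ITGB1 partners ITGA9 (75.2 CPM with EHMT1 siRNA, 73.9 CPM with scrambled siRNA) and ITGA2. It includes ITGAV, which also pairs with other beta chains. The ratio is therefore no measure of ITGB1 against all of its partners. Within the alpha chains, laminin receptor chains made up 41.9% ± 0.144 of the level with EHMT1 siRNA and 38.9% ± 0.344 with scrambled siRNA (SD, n = 3 each). The collagen receptor chains ITGA1, ITGA10 and ITGA11, without ITGA2, made up 4.59% ± 0.0922 with EHMT1 siRNA and 3.72% ± 0.287 with scrambled siRNA (SD, n = 3 each). The share of ITGA4 was 18.4% ± 0.354 with EHMT1 siRNA and 22.1% ± 0.183 with scrambled siRNA (SD, n = 3 each). ITGA5 and ITGAV together were at 35.1% ± 0.152 with EHMT1 siRNA and 35.3% ± 0.331 with scrambled siRNA (SD, n = 3 each) and overlapped between the groups, and the sign of that small difference turned with the longest transcript as length and in the second strand column. These shares follow from the members' own counts and add no independent observation.

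**Figure D3:**
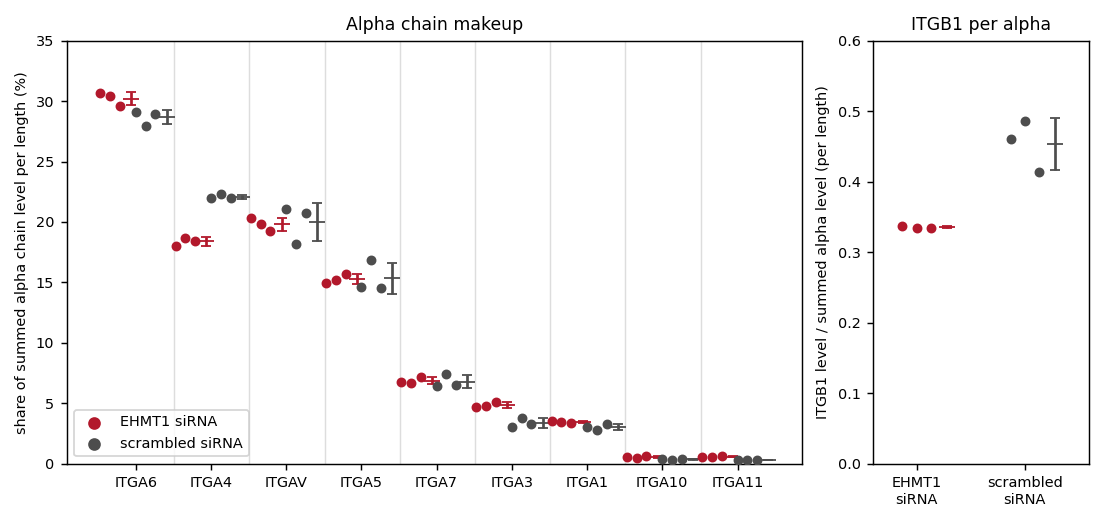
Left, share of each alpha chain in the summed alpha chain level per length (%) by library; right, ITGB1 level over the summed alpha level. Points are replicates 1 to 3, dashes and bars mean ± SD (n = 3), EHMT1 siRNA in red left of scrambled siRNA in grey. The ITGA4 share lies at 18.02% to 18.72% with EHMT1 siRNA and 21.96% to 22.28% with scrambled siRNA, and the ITGB1 ratio at 0.334 to 0.337 with EHMT1 siRNA and 0.414 to 0.487 with scrambled siRNA.

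Of 16 integrin chains outside the 10 genes, 11 passed the filter on low counts, 1 rose and 0 fell. The 1 that rose was let through this filter by its EHMT1 siRNA libraries, since its scrambled counts lay close to the minimum of 10. Its adjusted p is therefore a description. The chain that rose, ITGAX of leukocyte integrins (named after its values were seen), had only 33 to 39 counts per EHMT1 siRNA library and 10 to 12 per scrambled library, a log2 fold change of 1.77 (SE 0.335, edgeR adjusted p = 0.00228), and DESeq2 and a filter of 1 CPM in 3 libraries made no call in this list. ITGA9, an ITGB1 partner that binds tenascin, was at 75.2 ± 2.12 CPM with EHMT1 siRNA and 73.9 ± 1.22 CPM with scrambled siRNA (SD, n = 3 each; log2 fold change 0.03, edgeR adjusted p = 0.827). ITGA2, a collagen receptor chain, was at 2.28 ± 0.270 CPM with EHMT1 siRNA and 1.52 ± 0.442 CPM with scrambled siRNA (SD, n = 3 each; 0.57, edgeR adjusted p = 0.093). ITGA8 had 0 counts in every library, which allows up to 0.0635 to 0.0738 CPM. Among the other beta chains ITGB5 had a log2 fold change of -0.02, ITGB3 of 0.20 and ITGB8 of 0.09 (edgeR adjusted p = 0.846, 0.0691 and 0.536). ITGB2, ITGB4 and ITGB6 were near or under 3 CPM, with log2 fold changes of 0.62, -0.14 and 0.48 (edgeR adjusted p = 0.206, 0.719 and 0.507), and ITGB7 stayed under the filter. Of the summed level per length of the 8 beta chains, ITGB1 made up 66.1% ± 0.572 with EHMT1 siRNA and 71.0% ± 1.96 with scrambled siRNA (SD, n = 3 each), and ITGB5 and ITGB3 were the next.

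Ligands of these receptors moved more often up than down. Of 47 ligand genes 44 were tested, 10 rose and 3 fell, 29.5% of those tested against 12.4% over all genes. The median log2 fold change was 0.05 against 0.00. This list and the adaptor and trafficking lists below were chosen with earlier results of these data known. Their shares and adjusted p-values are therefore a description, and nothing is read from the shares. LAMB3, a chain of laminin-332, the ligand of ITGA3 and ITGA6 receptors, rose with a log2 fold change of 0.75 (SE 0.103, edgeR adjusted p = 0.000162). TGFBI, a secreted matrix protein with integrin-binding motifs, was at 331 ± 4.74 CPM with EHMT1 siRNA and 252 ± 17.5 CPM with scrambled siRNA (SD, n = 3 each; log2 fold change 0.39, edgeR adjusted p = 0.000395). COL1A2, a chain of type I collagen, rose by 0.54, and the matricellular genes THBS1 and CCN2 by 0.51 and 0.38 on the log2 scale (edgeR adjusted p = 0.000718, 0.00387 and 0.00332). COL1A1, the more abundant chain of type I collagen (named after its values were seen), did not pass. It was at 318 ± 6.04 CPM with EHMT1 siRNA and 306 ± 28.6 CPM with scrambled siRNA (SD, n = 3 each; log2 fold change 0.06, edgeR adjusted p = 0.634). TNXB, a tenascin with a close partial copy in the genome, rose by 0.31 (edgeR adjusted p = 0.00968), a call lost without EHMT1 siRNA replicate 2. NPNT, the ligand of the ITGA8 receptor, and COL2A1, the cartilage collagen, fell, with log2 fold changes of -0.34 and -0.43 (edgeR adjusted p = 0.00663 and 0.00736). NPNT failed when EHMT1 siRNA replicate 3 was dropped, and COL2A1 when replicate 1 or 2 was. With 1 library left out, 5 to 15 ligand genes rose and 1 to 5 fell, with 5 rises on leaving out EHMT1 siRNA replicate 2 and 15 on leaving out scrambled replicate 2.

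Cytoplasmic adaptors and kinases of integrin adhesions made up the next list. Of 52 such genes 49 were tested, 4 rose and 2 fell (12.2%, against 12.4% over all genes tested), with a median log2 fold change of 0.05. PARVA, an actin-binding partner of the integrin-linked kinase, rose by 0.24 (SE 0.057, edgeR adjusted p = 0.00946) and PTK2B, a relative of focal adhesion kinase, by 0.62 (SE 0.162, edgeR adjusted p = 0.018). GIT1, a scaffold of focal adhesions, had a log2 fold change of -0.21, PAK1, a kinase downstream of RAC1, of 0.20, and RAP1B, a GTPase that activates integrins, of -0.18 (edgeR adjusted p = 0.0214, 0.0416 and 0.0439). LPXN and TNS2 did not pass, at 0.53 and -0.22 (edgeR adjusted p = 0.0819 and 0.0931). Leaving out whichever EHMT1 siRNA library ended the calls of GIT1, PAK1 and RAP1B, and so did leaving out scrambled replicate 3 for PAK1 and scrambled replicate 1 for RAP1B. PAK1 and RAP1B also failed without a filter on low counts. PAK1 failed in the second strand column too, and RAP1B with upper quartile size factors. PARVA failed when EHMT1 siRNA replicate 1 or 2 was dropped, and PTK2B when EHMT1 siRNA replicate 3 or scrambled replicate 1 was. Without scrambled replicate 2, 11 of the list rose and 2 fell, and the fewest with 1 library left out were 1 risen and 0 fallen, without EHMT1 siRNA replicate 2.

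Among endocytic adaptors, recycling factors and membrane partners of integrins, 41 of 44 genes were tested, 4 rose and 3 fell (17.1%, against 12.4% over all genes tested), with a median log2 fold change of 0.02. GIPC1, a PDZ protein that binds the cytoplasmic ends of the ITGA5 and ITGA6 chains, fell, at 39.0 ± 3.27 CPM with EHMT1 siRNA and 101.2 ± 9.79 CPM with scrambled siRNA (SD, n = 3 each; log2 fold change -1.38, SE 0.077, edgeR adjusted p = 1.17e-08). RAB11FIP2, an effector of the recycling GTPase RAB11, and NUMBL, an endocytic adaptor, fell, with log2 fold changes of -0.51 and -0.38 (edgeR adjusted p = 0.000114 and 0.00125). CD82, a tetraspanin that associates with integrins, rose by 0.42, CAV1, the caveola coat protein, by 0.41 and CD47, an integrin-associated membrane protein, by 0.35 (edgeR adjusted p = 0.000191, 0.00117 and 0.00291). DAB2, a clathrin adaptor for integrins, rose by 0.18 (edgeR adjusted p = 0.0402), but failed when scrambled replicate 3 or whichever EHMT1 siRNA library was dropped. It also failed without a filter on low counts. MYO10, a motor that carries integrins to filopodia, did not pass, at -0.19 (edgeR adjusted p = 0.0583), but passed without scrambled replicate 1 or 3, with DESeq2, without a filter on low counts and in the second strand column.

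**Figure D4:**
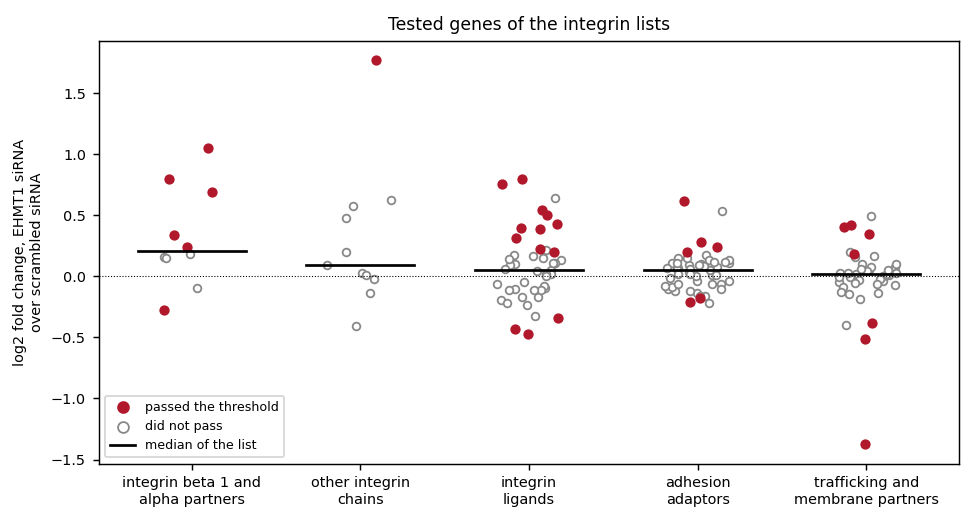
Log2 fold change of EHMT1 siRNA over scrambled siRNA (y axis) for each tested gene of the 5 integrin lists; filled points passed the threshold (edgeR, adjusted p under 0.05), open points did not, and lines mark list medians. The lowest point is GIPC1 at -1.38. The highest is ITGAX at 1.77, which rests on 10 to 12 counts per scrambled library. List medians run from 0.02 to 0.21.

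Other genes with a profile like that of ITGB1 were sought among 9850 protein-coding genes with a mean log2 CPM of at least 3, by the root mean square difference of centred log2 CPM over the 6 libraries. The 5 nearest were SPAG5, a mitotic spindle gene, PLCG2, a phospholipase, SMC3, a cohesin subunit, PLK4, a centriole kinase, and HNRNPDL, an RNA-binding protein. They differed from ITGB1 by 0.0126, 0.0181, 0.0203, 0.0213 and 0.0213 on the log2 scale, and their log2 fold changes ran from -0.29 to -0.25, beside -0.27 for ITGB1. The likeness of the fold changes follows from how the genes were picked and adds no independent observation.

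Reads from overlapping genes and from antisense partners may bear on some of these values, which was not tested. ITGA3, ITGA4 and ITGA11 shared no exonic base with another gene of GENCODE 29, while each of the other 7 shared some, most of all ITGA1, with 475 bases of PELO on its own strand and 571 of a processed pseudogene. Of the strand-specific counts of the 10 genes, 84.7% to 98.4% were on the second strand, against 87.1% to 89.0% over all genes of a library. The lowest share was in ITGA7, at 84.7% to 86.3%. ITGA11, which shared no exonic base, was at 86.5% to 91.7%.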

How the data were processed

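The authors deposited unnormalized read counts for each gene, 1 file per library in the layout of STAR's gene count table, with an unstranded column and 1 column per strand. STAR 2.5, HTSeq 0.6.1, CASAVA, bcl2fastq and the build hg19 come from the submitters' processing notes. The annotation is not given in the sources used here; 58352 of 61552 identifiers were in GENCODE 29 and 61399 in the table of gene names, so no gene coordinates are given from the files. Per the labels' protocols, poly-A RNA was purified and an NEBNext Ultra kit was used. Groups came from the sample titles. Reads naming no gene, 20.0% to 21.2% of each library, were left out of library sizes and tests.

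The unstranded column was tested by the quasi-likelihood method of edgeR 4.0.16 (R 4.3.3, robust setting, group as the single term) after TMM scaling and filterByExpr with a minimum count of 10, with Benjamini-Hochberg adjustment over the 18646 genes tested and a threshold of 0.05. SE is the absolute log2 fold change over the square root of F. CPM are counts scaled by library size, and carry TMM factors. TPM values were computed here from the counts and exon lengths of GENCODE 29. Intervals and floors cover counting error only. Nothing in the labels says whether replicates came from separate cultures; p-values therefore reflect only the spread among these libraries, which may be technical. Within groups, pairs of libraries differed by more than sampling noise. Chi-square per degree of freedom was 2.98 to 3.36 between EHMT1 siRNA libraries and 8.88 to 21.0 between scrambled libraries.

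The members and lists were chosen with earlier results of these data known. Named were all 10 members, EHMT1, the remaining integrin beta chains and ITGB1 partners, up to 8 genes of each of 3 pathway lists with the smallest adjusted p, GIPC1, and the 5 nearest profiles to ITGB1; 1 gene of the adaptor list that the rule names is not reported here. Alternatives were RLE and upper quartile factors, 2 other filters, DESeq2 1.42.0, limma-voom (limma 3.58.1), a replicate block, each strand column, a threshold of 0.01, another gene length and leaving out each library. On simulated counts with genes changed by known amounts the fit recovered most larger changes with the right sign and made no calls with no gene changed, but the share of false calls was above the nominal level in most draws, so genes just past the threshold are less certain than the adjusted p states.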

Additional observations from a re-analysis of the deposited data

How the results depend on the processing

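All 10 integrin genes kept their direction under every alternative run; of their 149 values, 138 also kept their side of the threshold, 7 lost a call (4 of them in the first strand column) and 4 gained one. The first strand column holds few of the reads and gave 90 genes higher and 87 lower in all, with 1 integrin gene higher and 0 lower, 0 other chains higher, 1 ligand higher and 0 lower, 0 adaptors either way and 1 trafficking gene higher. An adjusted p threshold of 0.01 left 492 genes higher and 525 lower, 6 ligands higher, and 2 adaptors higher and 0 lower. Upper quartile factors gave 1 adaptor lower and 2 other chains higher, no filter gave 6 ligands lower, and other chains had 0 higher with DESeq2 or the filter of at least 1 CPM in 3 libraries. The replicate block gave 1474 genes higher and 1632 lower, 7 ligands lower and 3 other chains higher; among the 10 integrin genes it changed the call of ITGA7 alone, which passed as higher (0.18), and among the other genes named it added calls of ITGA2, ITGB3, TNS2 and MYO10. Same-numbered libraries deviated together only weakly (correlations 0.0154 to 0.0555), although 5 of 6 libraries correlated best with their own number. Pairing is neither shown nor excluded by this. The sample titles number the replicates without naming pairs, and the main fit did not use the numbers.

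With 1 library left out, genes higher ran from 452 to 1625 and lower from 484 to 1923, integrin genes higher from 4 to 7 and lower from 0 to 1, other chains higher from 1 to 3, ligands higher from 5 to 15 and lower from 1 to 5, adaptors higher from 1 to 11 and lower from 0 to 2, and trafficking genes higher from 3 to 6 and lower from 3 to 4. The counts of all genes were lowest without EHMT1 siRNA replicate 2 and highest without scrambled replicate 2. Direction turned in ITGB4 (0.080 without scrambled replicate 2; -0.31 to 0.080 with 1 library left out) and in ITGB8 (-0.28 in the first strand column; -0.0025 to 0.14 with 1 library left out, negative without scrambled replicate 2); neither was called under any setting, and the cause was not tested. Depth limits ITGA10 and ITGA11 most, and chains with 0 counts cannot be called absent.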
